A study of Mus musculus with 24 samples.

Results

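miR-335 is the microRNA made from a hairpin inside an intron of Mest, an imprinted mouse gene that is transcribed from the paternal allele. Both mature arms of the hairpin, mmu-miR-335-5p and mmu-miR-335-3p (the prefix is left out from here on), were taken by name from the deposited counts, which makes 2 of 1221 mature miRNA names. The hairpin was chosen by the measured level of miR-335-5p, which was lower at late than at early chase times in these same libraries, so levels over the chase are described here without a test. A test is given for the isoform make-up within an arm, which does not use the arm's level.

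All libraries were made from 3T9 cells, a mouse fibroblast line that was kept in medium with 10% serum. In 21 libraries the RNA had been marked for 3 h with 300 µM 4-thiouridine (4SU), a uridine analogue to which biotin can be attached, then chased in 1 mM uridine for 0, 2, 4, 6, 8, 10 or 12 h and purified on streptavidin beads, in 3 experiments that the series design calls independent. Of the 3 control libraries, 1 was total RNA of 4SU-pulsed cells, 1 a negative extraction on cells that had received no 4SU, and 1 total RNA of unlabelled cells. The control identities follow the sample titles and the series design, whereas the treatment field gives the same 4SU and uridine treatment for every sample, the controls included. No label states a genetic change in these cells. Each control kind had 1 library and so no replicate check.

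A microRNA hairpin is cut by Drosha and then Dicer, which frees a duplex of a 5p and a 3p arm. One arm is loaded into an Argonaute protein as the guide and pairs with target mRNAs mainly through its seed, bases 2 to 8, while the partner strand is often lost. In human breast cancer cells miR-335 is known as a brake on metastasis that acts on SOX4 and tenascin C. Mest, the host, encodes a protein of the alpha/beta hydrolase fold and is active in mesodermal tissue of the embryo.

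The sequences of both arms are shown because their uridine content and their 3′ neighbours in the hairpin bear on labelling and on the isoform classes. They are RefSeq sequences on GRCm38.p6, matched by name for both members, with the seed in capitals in the arms and the mature arms in capitals in the hairpin.
miR-335-5p: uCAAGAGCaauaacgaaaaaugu
miR-335-3p: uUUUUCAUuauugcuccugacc
Mir335 hairpin: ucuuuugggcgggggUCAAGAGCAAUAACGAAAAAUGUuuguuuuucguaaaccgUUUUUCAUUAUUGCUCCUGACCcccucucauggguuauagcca
The hairpin lies at chr6:30741299-30741396 on the plus strand, with the 5p arm at 30741314 to 30741336 and the 3p arm at 30741354 to 30741375. GENCODE M21 places it inside Mest (chromosome 6, 30723547 to 30748465, the same strand). Of 11 annotated Mest transcripts, 7 have an intron across the hairpin and 0 have an exon there, and in the transcripts Mest-210 and Mest-211 this is intron 2. The 5p arm is 23 bases long with 4 uridines (17.4%), of which 0 are in the seed. The 3p arm is 22 bases long with 11 uridines (50.0%), of which 5 are in the seed. Among 346 tested miRNAs with a RefSeq sequence the median was 27.3%, with 39 below the 5p arm and 339 below the 3p arm. Of 1679 mature mouse miRNAs in the RefSeq table, 0 others share the seed of either arm.

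Depth, taken as the sum of all miRNA counts, ranged over 1133048 to 7886484 in purified RNA and was 4525638 in total 4SU RNA, 283922 in the negative extraction and 6412428 in total unlabelled RNA. It was lower at 12 h than at 0 h in all 3 experiments. Levels are given as CPM, the count scaled to that depth, and 3 counts were worth 0.380 to 2.65 CPM in the purified libraries. The fibroblast markers (miR-21a-5p, miR-143-3p, miR-145a-5p, miR-199a-3p, miR-199a-5p and miR-214-3p) summed to 110097 to 219556 CPM in the purified libraries, 109678 CPM in the negative extraction and 215560 to 246686 CPM in total RNA. Most of the purified sum was miR-143-3p and miR-21a-5p (means 94664 and 67628 CPM), while miR-145a-5p averaged 347 CPM. Epithelial markers summed to 201 to 1151 CPM in the purified libraries, 740 CPM in the negative extraction and 33.1 to 186 CPM in total RNA. Nearly all of that was miR-205-5p, and the 5 markers of the miR-200 family did not exceed 1.72 CPM. Blood markers summed to 185 to 734 CPM in the purified libraries, 324 CPM in the negative extraction and 222 to 239 CPM in total RNA, nearly all miR-486a-5p, with miR-142a, miR-223-3p and miR-451a below 0.87 CPM. Muscle markers summed to 1.77 to 22.1 CPM in the purified libraries, with miR-1a-3p at 0. Neural markers summed to 399 to 610 CPM, mostly miR-128-3p. The part of such cells or RNA in the values below was not tested. The second header line gives each library an unexplained code, which differs between the 3 experiments, so experiment and code cannot be told apart. The negative extraction has the code of experiment 1, and total RNA has one of its own. Within experiment 1 the 0 h library has a different prefix before the code.

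The chase asks how the labelled pool of each miRNA changes once labelling stops. miR-335-5p, the arm usually described as the guide, was lower at 12 h than at 0 h in 3 of 3 experiments. In experiment 1 it stood at 863, 573, 473, 354, 367, 229 and 145 CPM at 0, 2, 4, 6, 8, 10 and 12 h, with 6673 counts at 0 h and 476 at 12 h. In experiment 2 the levels were 191, 141, 72.0, 141, 117, 65.8 and 68.0 CPM, on 578 counts at 0 h and 77 at 12 h. In experiment 3 they were 437, 406, 349, 332, 196, 112 and 125 CPM, on 2015 counts at 0 h and 317 at 12 h. Experiment 1 was highest and experiment 2 lowest at 7 of 7 times, and experiment 1 exceeded experiment 2 by 2.13-fold to 6.57-fold. The level at 12 h was therefore below that at 0 h within every experiment, while the 12 h library of experiment 1 was above 2 h in experiment 2. The mean at 12 h was 113 ± 40.0 CPM, against 497 ± 340 CPM at 0 h (SD, n = 3 each).

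Measured within experiments, 16.8%, 35.5% and 28.7% of the 0 h level of miR-335-5p was left at 12 h in experiments 1, 2 and 3 (27.0% ± 9.45, SD, n = 3). At 2 h it was 77.8% ± 13.7, at 6 h 63.5% ± 19.6 and at 8 h 49.6% ± 10.2. The largest step down on the log2 scale lay between 8 and 10 h in experiments 1 and 3 (-0.68 and -0.81) and between 2 and 4 h in experiment 2 (-0.97). Steps down were thus spread over the chase, with 5, 4 and 5 of 6 steps downward in the 3 experiments. These are shares of the sequenced miRNA pool with no spike-in, so they are no half-lives, and in bulk RNA fewer cells with a miRNA and less of it per cell cannot be told apart.

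**Figure D1:**
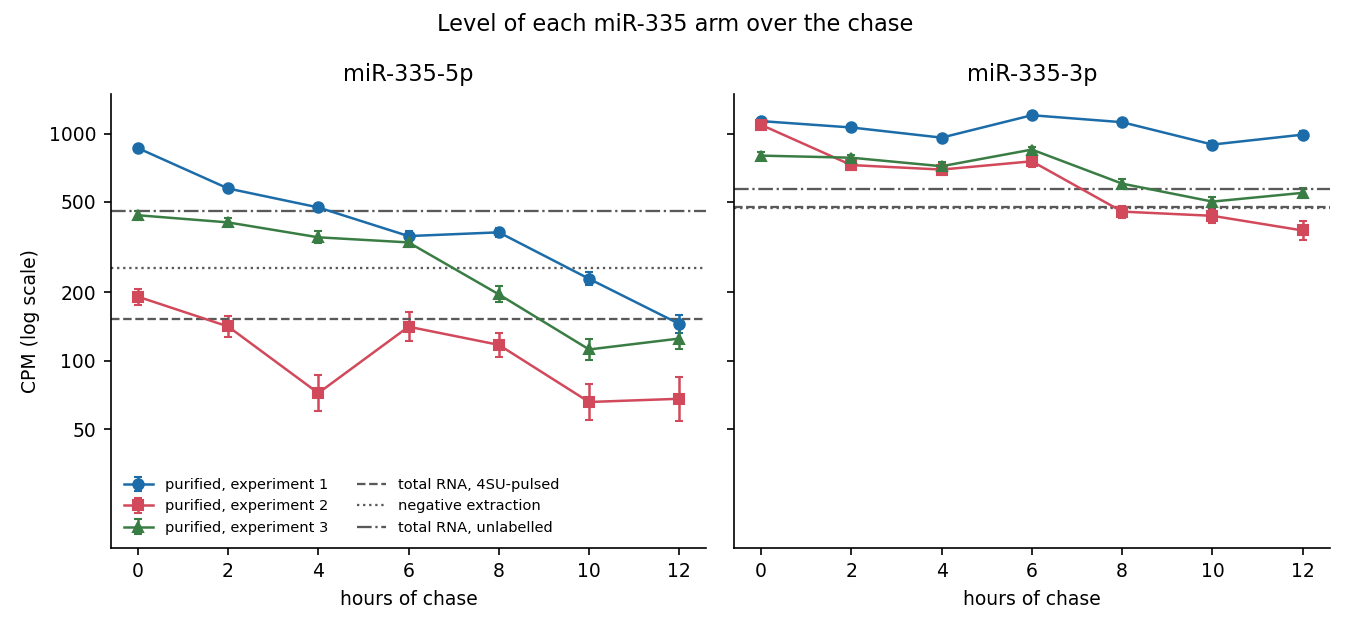
Level of miR-335-5p (left) and miR-335-3p (right) in CPM on a log axis against hours of chase in purified RNA, by experiment, with 95% Wilson intervals that cover counting error only. Horizontal lines mark the 3 control libraries. The 5p arm ended at 68.0 to 145 CPM at 12 h, and the 3p arm at 374 to 989 CPM.

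miR-335-3p, which takes its name from the opposite side of the hairpin, was the more abundant arm in all 24 libraries. In experiment 1 it stood at 1134, 1063, 959, 1204, 1121, 894 and 989 CPM from 0 to 12 h. In experiment 2 it stood at 1092, 726, 694, 755, 453, 434.2 and 374 CPM. In experiment 3 it stood at 799, 782, 718, 850, 602, 501 and 548 CPM. Experiment 1 stayed within a narrow band, and the 12 h level was 87.2% of the 0 h level there, against 34.3% in experiment 2 and 68.6% in experiment 3. The mean at 12 h was 637 ± 317 CPM, against 1008 ± 182 CPM at 0 h (SD, n = 3 each).

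A line through log2 levels gives the relative change per hour. It was fitted to all 414 tested miRNAs with edgeR under TMM scaling, so a slope is relative to the bulk of the miRNAs. The slope of miR-335-5p was -0.15 log2 per hour (SE 0.0379), and 11 of the 414 had a lower slope. The slope of miR-335-3p was -0.04 log2 per hour (SE 0.0196), and 90 had a lower one. This fit had no term for the experiment, so both SEs include the differences between experiments. With the experiment as a block the slopes were -0.142 for miR-335-5p and -0.0440 for miR-335-3p. Lines through the TMM-scaled levels of single experiments gave -0.17, -0.09 and -0.15 for miR-335-5p in experiments 1, 2 and 3. For miR-335-3p they gave 0.00, -0.10 and -0.03. Without experiment 2 the fitted slope of miR-335-3p was -0.0075, and without experiment 1 it was -0.0699, so single experiments set its size, while miR-335-5p stayed between -0.161 and -0.135 with any experiment left out and was -0.13 without the 0 h library of experiment 1. By the call rule of an adjusted p under 0.05, 12.3% of all tested miRNAs were called for the slope, 5.07% upward and 7.25% downward. With the experiment as a block these shares were 31.9%, 15.2% and 16.7%.

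The arms can be set against each other within a library, where library scaling cancels. In experiment 1 miR-335-5p held 43.2, 35.0, 33.0, 22.7, 24.7, 20.4 and 12.8% of the hairpin's counts from 0 to 12 h. In experiment 3 it held 35.3, 34.2, 32.7, 28.1, 24.6, 18.3 and 18.6%. In experiment 2 it held 14.9, 16.3, 9.40, 15.8, 20.6, 13.2 and 15.4%. The share was lower at 12 h than at 0 h in experiments 1 and 3, and experiment 2 began near where the other two ended. The log2 ratio of miR-335-5p to miR-335-3p had slopes of -0.18, 0.01 and -0.12 per hour in experiments 1, 2 and 3, with a mean of -0.0939 ± 0.0975 (SD, n = 3). Without experiment 2 the mean was -0.148, and without experiment 1 it was -0.0532. The ratio holds the level for which the hairpin was chosen, so no test is given.

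**Figure D2:**
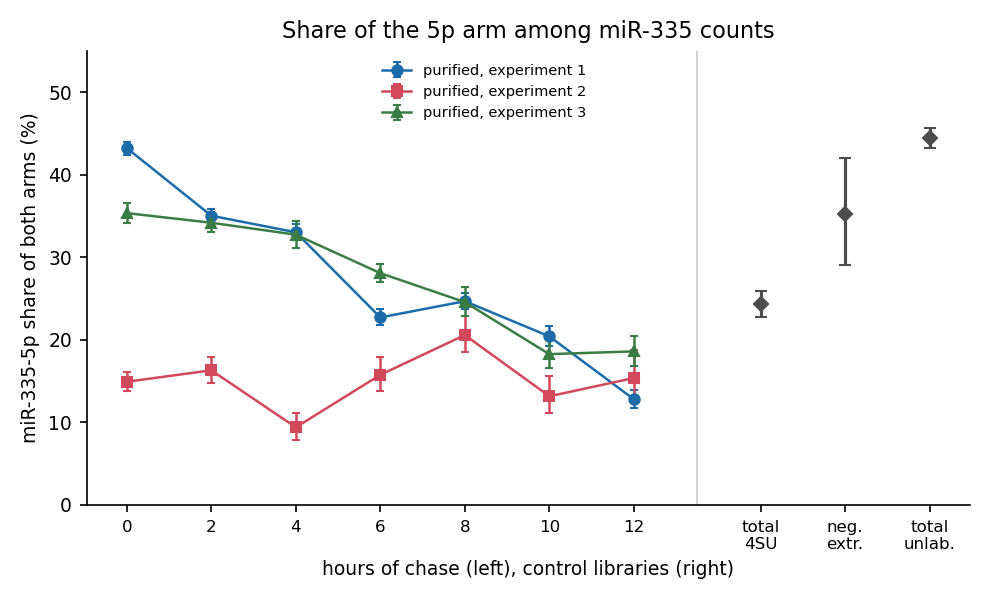
Share of miR-335-5p among the counts of both miR-335 arms, in percent, over the chase in 3 experiments (left) and in the 3 control libraries (right), with 95% Wilson intervals. Experiments 1 and 3 began at 43.2 and 35.3% and ended at 12.8 and 18.6%, while experiment 2 stayed between 9.40 and 20.6%.

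For scale, 102 hairpins had both arms among the tested miRNAs under names that differ only in the arm. Hairpins with an extra number in the name of one arm were left out. The slope of the 5p arm minus that of the 3p arm was -0.12 for miR-335, against a median of 0.01, and 2 of the 102 had a lower difference. Counted in either direction, 10 hairpins had a larger difference. In the same hairpins the slope of the scarcer arm minus that of the more abundant arm had a median of -0.02, and 9 were lower than miR-335. Some hairpins left out had wider gaps: miR-29b-1-5p (-0.178) against miR-29b-3p (0.0793), and miR-92a-1-5p (-0.178) against miR-92a-3p (0.0719). Others did not, such as let-7a-5p (-0.0035) and let-7a-1-3p (-0.0084). The ranks thus hold for the 102 only. These differences hold the level for which miR-335 was chosen, so no test is given.

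**Figure D3:**
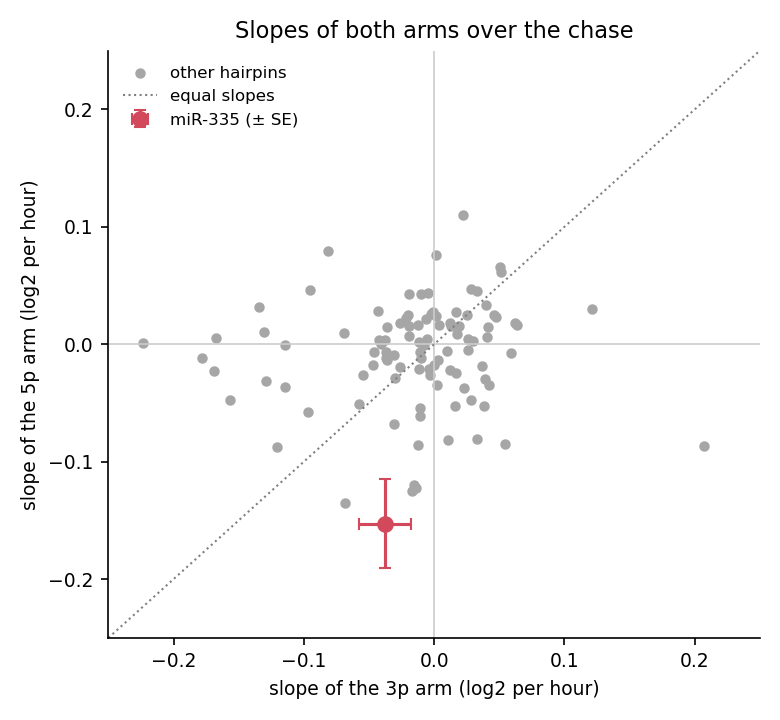
Slope of the 5p arm against slope of the 3p arm, in log2 per hour of chase, for 102 hairpins. Both arms were tested and have names that differ only in the arm. miR-335, with SE bars, lies at -0.15 for the 5p arm and -0.04 for the 3p arm, below the line of equal slopes. Its 5p slope (-0.153) was the lowest of the 5p arms plotted. The tested arms miR-29b-1-5p (-0.178), miR-92a-1-5p (-0.178) and miR-24-1-5p (-0.156) had lower slopes but are not plotted.

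The counts of an arm are split by form into canonical reads, trimmed reads, reads with a templated change at one end and reads with added bases. The class names are taken at their word, as no source used here defines them. The trimmed share of miR-335-3p rose over the chase, by 0.964 percentage points per hour (SD over experiments 0.427), and its canonical share fell by 0.807 points per hour (SD 0.442). Both directions held in 3 of 3 experiments. In experiment 1 the trimmed share was 19.8, 24.1, 25.5, 21.9, 27.7, 30.8 and 23.9% from 0 to 12 h. In experiment 2 it was 13.9, 12.1, 11.4, 16.7, 21.1, 18.97 and 25.5%. In experiment 3 it was 18.6, 21.8, 25.4, 26.9, 34.8, 34.6 and 32.1%. The trimmed share ranged over 23.9 to 32.1% in the 12 h libraries, against 13.9 to 19.8% in the 0 h libraries. How many other miRNAs showed such a gap was not counted, and the test below was run on miR-335 only. A two-sided permutation test of times within experiments (100000 resamples, n = 21) gave adjusted p = 0.00036 for the trimmed share and adjusted p = 0.00054 for the canonical share. Adjustment was over the 6 pairs of arm and class that were common enough to test, and as shares of one total the trimmed and canonical classes are not independent.

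The canonical share of miR-335-3p averaged 58.9% ± 5.45 at 12 h, against 67.5% ± 3.75 at 0 h (SD, n = 3 each). In level, canonical miR-335-3p had slopes of -0.01, -0.12 and -0.06 log2 per hour in experiments 1, 2 and 3. The trimmed form had slopes of 0.03, -0.02 and 0.04. Among 211 tested miRNAs with enough trimmed reads, the slope of the trimmed share had a median of 0.0422 points per hour, and 8 were above miR-335-3p. Depth was lower at late times in every experiment, and its part in these shares was not tested.

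**Figure D4:**
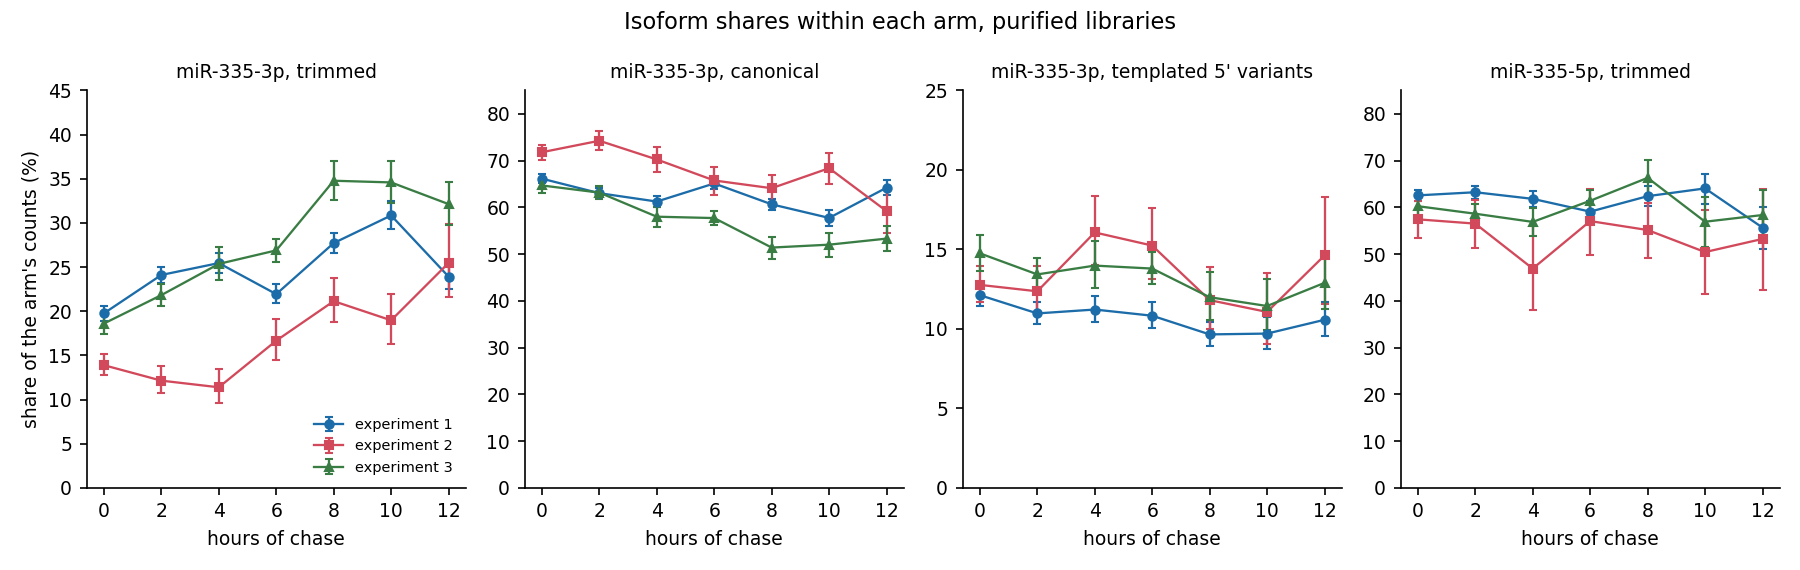
Isoform shares within an arm, in percent of that arm's counts, against hours of chase in purified RNA, by experiment, with 95% Wilson intervals. Each panel has its own percent axis from 0. The trimmed share of miR-335-3p was 13.9 to 19.8% at 0 h and 23.9 to 32.1% at 12 h.

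In miR-335-5p the trimmed class was the larger one, with 61.1% of the arm's summed counts in purified RNA and 46.9 to 66.3% in single libraries. The canonical class held 37.8%. Over the chase the trimmed share of miR-335-5p had a slope of -0.206 points per hour (SD over experiments 0.185, adjusted p = 0.414, permutation test). Its canonical share had a slope of 0.135 points per hour (SD 0.319, adjusted p = 0.474, permutation test). Neither passed the threshold, and experiment 3 differed in sign from the other experiments for both. Counts of miR-335-5p went as low as 77 in a library, where the trimmed share at 12 h of experiment 2 (53.2%) had an interval of 42.2 to 64.0%.

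miR-335-3p also carried templated 5′ variants, which shift the seed and so could change the set of targets. They held 9.65 to 16.1% of the arm (median 12.1%), and the class has no entry under miR-335-5p. Their share had a slope of -0.129 points per hour (SD 0.0946, adjusted p = 0.171, permutation test), downward in 3 of 3 experiments but not past the threshold. It passed without experiment 2 (adjusted p = 0.00741, permutation test) and without 12 h (adjusted p = 0.0326, permutation test). Forms with non-templated bases at the 3′ end made up 1.76% of miR-335-3p, and the slope of this share was -0.0266 points per hour (SD 0.0165, adjusted p = 0.441, permutation test).

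Terminal transferases tail the 3′ end of miRNAs, mostly with U or A. Of 1231 counts of miR-335-3p with 3′ additions in purified RNA, 62.1% carried U and 24.2% carried A. The U forms made up 33 of 63 such counts at 12 h, against 196 of 282 at 0 h, summed over experiments (52.4% and 69.5%). They were 18 of 38 at 12 h against 110 of 164 at 0 h in experiment 1, and 12 of 22 against 49 of 70 in experiment 3. In experiment 2 they were 37 of 48, 20 of 20, 19 of 25 and 21 of 23 from 0 to 6 h. At 8, 10 and 12 h there they were 15 of 30, 6 of 12 and 3 of 3. The 12 h value of experiment 2 rests on 3 counts and cannot show whether the pooled difference held there. No test was run. In total 4SU RNA the U forms were 10 of 32, and in total unlabelled RNA 50 of 81. On miR-335-5p 80 of 28997 counts had 3′ additions (0.276%), and 74 of the 80 carried A. In the hairpin the base after miR-335-5p is U and the base after miR-335-3p is C, so a single added U on the 5p arm or C on the 3p arm would match the template. The counts hold no entry for 3′ additions of U or G on miR-335-5p, nor of C on miR-335-3p.

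Total RNA shows the hairpin outside the purification. miR-335-5p stood at 152 CPM in total RNA of 4SU-pulsed cells (690 counts, 95% Wilson interval 142 to 164 CPM), against 456 CPM in unlabelled cells (2927 counts, 440 to 473 CPM). The log2 ratio was -1.58, with a median of 0.31 over the 414 tested miRNAs, of which 9 were lower. miR-335-3p stood at 475 CPM in pulsed cells (2148 counts), against 572 CPM in unlabelled cells (3667 counts), a log2 ratio of -0.27. The 5p arm held 24.3% of the hairpin's counts in pulsed cells (22.8 to 25.9%), against 44.4% in unlabelled cells (43.2 to 45.6%). These compare 1 library with 1 library, and the intervals cover counting error only.

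Purified RNA at 0 h was set against total 4SU RNA to see how far each arm was enriched in the labelled pool. miR-335-5p was 5.63, 1.25 and 2.85-fold higher in purified RNA of experiments 1, 2 and 3 than in total 4SU RNA, a mean log2 ratio of 1.44 ± 1.08 (SD, n = 3). miR-335-3p was 2.39, 2.30 and 1.68-fold higher, a mean log2 ratio of 1.07 ± 0.277. Medians over the 414 miRNAs were 0.04, -0.16 and -0.02 in the 3 experiments. Against total unlabelled RNA the means were -0.13 ± 1.08 for miR-335-5p, which turned its direction, and 0.80 ± 0.277 for miR-335-3p. Purified and total libraries never share a header code, so that difference and the purification cannot be told apart.

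The purified libraries were also set against the negative extraction, which carries RNA recovered without a label. For miR-335-5p 12 of the 21 purified libraries were below the 257 CPM of the negative extraction (73 counts). These were all 7 libraries of experiment 2, those at 10 and 12 h of experiment 1 and those from 8 h on in experiment 3. For miR-335-3p 3 of the 21 were below its 472 CPM (interval 399 to 559 CPM), namely those from 8 h on in experiment 2. The amount of RNA behind each library is not part of these counts, so this level cannot be subtracted.

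In isoform make-up, the trimmed share of miR-335-5p was 46.9 to 66.3% in purified RNA, against 50.6% in total 4SU RNA and 48.9% in total unlabelled RNA, and 19 of 21 purified libraries were above both. The share of templated 5′ variants in miR-335-3p was 9.65 to 16.1% in purified RNA, against 9.31% in total 4SU RNA and 10.0% in total unlabelled RNA, with 19 of 21 above both as well. The trimmed share of miR-335-3p was 11.4 to 34.8% in purified RNA, a range that holds the 22.0% of total 4SU RNA and the 28.5% of total unlabelled RNA. Total RNA has no replicate and never shares a header code with purified RNA. Other miRNAs were not compared in this way, so these counts may not be particular to miR-335.

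Other miRNAs of imprinted loci were taken as a list. From H19 and Igf2, Nespas and the Dlk1-Dio3 region, 64 names had a row and 9 were abundant enough to test. By edgeR none of these had a called slope (0 upward, 0 downward), beside 5.07% upward and 7.25% downward among all tested miRNAs. The count was also 0 by DESeq2, beside 16.9% of all, and 0 had an unadjusted p under 0.05, beside 24.4% of all. With the experiment as a block 1 was called downward, miR-298-5p, beside 31.9% of all (15.2% upward, 16.7% downward). With total counts only in place of TMM 1 of 9 was called, miR-298-5p, beside 13.8% of all, and with canonical counts only 1 of 4, miR-296-3p, beside 15.6% of all. miR-298-5p averaged 8907 CPM with a slope of -0.02 (SE 0.0117, adjusted p = 0.317, or 0.0474 with the block). miR-296-3p and miR-296-5p of the same locus had mean levels of 220 and 101 CPM and slope values of -0.03 (adjusted p = 0.662) and -0.01 (adjusted p = 0.866). From the Dlk1-Dio3 region, miR-541-5p had a mean level of 5.67 CPM and a slope of 0.05 (adjusted p = 0.489), and miR-376a-5p a mean level of 7.29 CPM and a slope of -0.05 (adjusted p = 0.852). Of the 9, 8 slopes were below 0 with a median of -0.03, against 222 of 414 and a median of -0.0037 over all. The repeats of the miR-297, miR-466, miR-467 and miR-669 type, many of them in the imprinted gene Sfmbt2, had 30 tested names, of which 6 were called downward and 0 upward, with a median slope of -0.06. With the experiment as a block 14 of the 30 were called downward and 0 upward, beside 16.7% downward among all tested miRNAs. Reads may be shared between repeats of near-identical sequence, so the 30 names are not independent observations.

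The miRNAs whose levels most resembled those of miR-335-5p over the 21 purified libraries were miR-214-3p, miR-466d-3p, miR-466a-3p, miR-466b-3p and miR-671-5p, with Pearson's r of log2(CPM + 1) between 0.939 and 0.953. After centring within experiments their r was 0.874 to 0.933. miR-214-3p averaged 1253 CPM with a slope of -0.11 (SE 0.0345), and the 3 miR-466 names have near-identical sequences whose reads may be shared. For miR-335-3p the closest were miR-669f-3p, miR-196b-5p, miR-466b-3p, miR-574-3p and miR-26a-5p, with r between 0.829 and 0.875. The arms of the hairpin themselves had r = 0.753, or 0.645 within experiments, and miR-335-3p ranked at 58 among the miRNAs most like miR-335-5p. All points share libraries, depth and header codes, and these values are a description.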

How the data were processed

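The authors deposited read counts, whole numbers per isoform class of each mature miRNA with one column per library. The submitters' processing notes name CASAVA 1.8.0. For the aligner, annotation, genome build and class definitions, nothing is stated in the labels or headers. For each arm the canonical, trimmed, templated and non-templated classes were summed (11 of the 26 miR-335 entries), since entries by added base repeat the totals. The check of this also compared canonical and trimmed entries with their non-templated forms, and 25728 of 25728 cells were equal. CPM used the summed miRNA count.

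Slopes came from edgeR 4.0.16 (quasi-likelihood, TMM, filterByExpr with time points as groups, hours as a number, Benjamini-Hochberg, threshold 0.05) in R 4.3.3. They were checked on simulated counts without differences between experiments, so the check does not cover the pairing of these libraries. SEs were derived from the F statistic. Isoform classes with at least 1% of an arm's counts, in arms with at least 10 counts in every library, were tested by permuting times within experiments. Log ratios used a pseudocount of 1 CPM. Intervals are 95% Wilson intervals, reads carry no molecular identifiers, and p-values measure the spread between these libraries.

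Libraries with the same experiment number resembled each other. Deviations from time means correlated at 0.311 to 0.738 in all 63 pairs within experiments. In 126 pairs between experiments at different times the range was -0.647 to 0.227. Time means were taken over the 3 experiments, so likeness within experiments by itself makes correlations between them negative. Each experiment has its own header code, so pairing and code cannot be told apart. Similar miRNAs were named as the 5 of highest correlation with each arm, and of the imprinted loci the called and the 5 most abundant. Members and lists were chosen with earlier results of these data known. Alternatives covered scaling, DESeq2 1.42.0, filters, the block, left-out times, experiments and libraries, pseudocounts and canonical counts.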

Additional observations from a re-analysis of the deposited data

How the results depend on the processing

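Of 194 recomputed values, 179 kept their direction and side of the threshold, or stayed within the spread between experiments. The slope of miR-335-5p was -0.17 with total counts only, -0.15 with upper-quartile scaling and -0.16 in DESeq2, and -0.1697 to -0.132 with single libraries or experiments left out. That of miR-335-3p was -0.0699 to -0.0075, and that of the log2 arm ratio -0.148 to -0.0532, with single experiments left out. The number of miRNAs called for the slope, 51, was 132 with the experiment as a replicate block, 14 without 0 h and 21 without 12 h. It was 15 to 79 over all left-out experiments and libraries: 20, 79 and 15 without experiments 1, 2 and 3, and 29 and 33 without the 0 h library of experiments 1 and 3. The imprinted list gave 1 call with the replicate block, 1 with total counts only (57 of 414 over all tested) and 1 of 4 tested with canonical counts only (45 of 288 over all tested), and 0 in every left-out fit.

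The trimmed and canonical shares of miR-335-3p passed in every alternative run, with slopes of 0.771 to 1.19 and -1.06 to -0.649 points per hour over left-out experiments. With no replicate block, so with times permuted over all libraries, adjusted p was 0.0322 and 0.0372, the highest over their alternatives. Templated 5′ variants passed without 12 h (-0.231 points per hour) and, over left-out experiments, ranged from -0.181 without experiment 2 to -0.0897. The share with 3′ additions was -0.033 to -0.0173 over left-out experiments, and 0.0177 without 12 h. The trimmed and canonical shares of miR-335-5p ranged from -0.312 to -0.144 and from 0.0392 to 0.319. The log2 ratio of purified over total 4SU RNA at 0 h was 0.919 to 2.00 for miR-335-5p and 0.975 to 1.23 for miR-335-3p over left-out experiments, and -0.13 for miR-335-5p against total unlabelled RNA. The causes were not tested. Counts of 77 to 345 for miR-335-5p in several libraries of experiment 2 limit the precision of its isoform shares.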

Other observations

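In the 21 purified libraries the trimmed share of miR-335-5p was 46.9 to 66.3%, all below the 67.1% of the negative extraction. That value rests on 73 counts, and its interval of 55.7 to 76.8% holds the purified median of 58.4%. For miR-335-3p the trimmed share in 19 of the 21 was above the 13.4% of the negative extraction (interval 8.67 to 20.2%). The 5p arm held 9.40 to 43.2% of the hairpin's counts in the purified libraries, against 35.3% in the negative extraction (interval 29.1 to 42.0%).

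Uridine content and enrichment in purified RNA can be set side by side over 346 tested miRNAs with a RefSeq sequence. Pearson's r between the percent of U and the log2 ratio of purified RNA at 0 h over total 4SU RNA was -0.01, -0.04 and -0.002 in experiments 1, 2 and 3, a description across miRNAs that share libraries. miR-335-5p, with 17.4% U, and miR-335-3p, with 50.0% U, were both above total 4SU RNA, a single library, in 3 of 3 experiments. Against total unlabelled RNA miR-335-5p was 1.89, 0.42 and 0.96-fold in experiments 1, 2 and 3. There miR-335-3p was 1.98, 1.91 and 1.40-fold. The part of uridine content in these ratios was not tested.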
